A study of Mus musculus with 2 samples.

Results

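The sinusoidal endothelial cells described here carried at least 2 UMIs (unique molecular identifiers, each standing for 1 captured RNA molecule) of Kit and none of the central vein genes Rspo3, Wnt9b, Selp and Lhx6. They were selected on these UMI counts and are called Kit-high cells below. They numbered 635 of 9703 cells in the series and all came from 1 library, WT replicate 1, of which they made up 8.63% of 7362 cells. The rule kept cells with at most 20% mitochondrial UMIs, at least 0.8% of UMIs from 9 endothelial genes (Stab2, Stab1, Clec4g, Kdr, Ptprb, Oit3, Fcgr2b, Gpr182 and Dnase1l3) and under 0.4% from 7 Kupffer cell genes (Clec4f, Vsig4, Timd4, Cd5l, Marco, C1qa and Adgre1). Of the cells of replicate 1, 6765 passed the mitochondrial limit, 2888 of these passed the endothelial limit, 2884 the Kupffer limit as well, and 2424 of those had no vein gene UMI.

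The cells came from livers of C57BL/6 mice aged 8 weeks, labelled WT, which were dissociated with enzymes, separated on a Percoll gradient and read by droplet-based 3′ sequencing. The labels name no drug or altered allele, and do not say how many animals gave a library. WT replicate 2 held 2341 cells, of which 2 passed the endothelial and Kupffer limits and 0 carried 2 Kit UMIs without vein genes. Every comparison below is therefore between sets of cells of 1 library, with no replicate check and no test, and the intervals (95%, exact) cover counting error only.

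Kit-high cells were set against 3 other sets of the same endothelial gate. The first was 300 Kit-high cells that did carry a vein gene UMI. The second was 350 cells with no Kit UMI and at least 1 UMI each of Efnb2 and Dll4, arterial-type genes of the portal side. The third was all 1275 cells with no Kit and no vein gene UMI, called Kit-zero cells, which include the 350. Another 514 cells had exactly 1 Kit UMI.

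Kit is a receptor tyrosine kinase, and its ligand is stem cell factor, the product of Kitl. Blood crosses the liver lobule through the sinusoids from the portal side to the central vein, and the endothelium changes its genes along the way. Endothelium of the central vein and of the sinusoids next to it is known in the mouse as a source of Wnt ligands, Wnt2 and Wnt9b, and of the Wnt enhancer Rspo3, which set the gene program of neighbouring hepatocytes. Kit is known as a surface marker of the sinusoidal endothelium on that central side.

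Kit lies on chromosome 5 from 75574916 to 75656722 on the plus strand and Wnt2 on chromosome 6 from 17988940 to 18030585 on the minus strand (GENCODE vM21, GRCm38). Both are protein-coding. The stretches in front of these genes are shown because Kit chose the cells and Wnt2 is the ligand whose level followed it. They are the bases of the RefSeq promoter window (GRCm38.p6, 250 bases before the start) that lie outside the annotated gene, at chr5:75574737-75574915 on the plus strand and chr6:18030586-18030695 on the minus strand, with a GC box, GGGCGG or its reverse complement CCGCCC, in capitals:
Kit: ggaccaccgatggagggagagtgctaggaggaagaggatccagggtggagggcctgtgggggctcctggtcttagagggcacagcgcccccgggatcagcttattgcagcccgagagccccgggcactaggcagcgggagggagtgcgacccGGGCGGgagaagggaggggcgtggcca
Wnt2: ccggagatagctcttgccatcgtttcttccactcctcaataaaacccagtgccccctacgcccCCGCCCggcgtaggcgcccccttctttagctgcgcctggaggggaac
Each full window of 250 bases held 1 GC box, which 32.7% of 32851 mouse promoter windows hold on either strand. The Wnt2 window also held 2 copies of GATAA, read as TTATC, a motif in 22.6% of windows, and 1 CCAAT, read as ATTGG, in 33.8%. The Kit window held 0 of either.

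Marker genes of sinusoidal endothelium were present. Median UMIs per Kit-high cell were 3 for Kit (2 to 20), 2 for Wnt2 (0 to 13), 6 for Stab2 (0 to 31) and 16 for Clec4g (0 to 78). Kit, Stab2 and Clec4g belong to the rule. Among endothelial genes it did not use, F8, coagulation factor VIII, had a UMI in 612 of the 635 cells, Lyve1, a hyaluronan receptor, in 456 and Gata4, the transcription factor of sinusoidal identity, in 417. After every cell was thinned to 2000 UMIs, F8 was seen in 81.5% of Kit-high cells and 1.14% of cells with Kupffer genes, a class that should lack it, Lyve1 in 55.4% and 2.48%, and Gata4 in 34.3% and 1.29%. Mrc1, the mannose receptor, was in 98.0% of Kit-high cells but also in 84.9% of cells with Kupffer genes, so it does not tell them apart.

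Kit-high cells held 4028865 UMIs, with a median of 5564 per cell (861 to 26582), 2467 genes and 3.47% mitochondrial UMIs. Kit-zero cells had a median of 4254 UMIs, Kit-high cells with vein genes 6045.5 and Efnb2 and Dll4 positive cells 5458. Kit-high cells were thus deeper than Kit-zero cells. With Kit-zero cells weighted to the depth of Kit-high cells, the Wnt2 ratio given below was 2.95 in place of 2.56. Of 4369 Kit UMIs in replicate 1, Kit-high cells held 2032 (46.5%) and Kit-high cells with vein genes 1442 (33.0%). After every cell was thinned to 2000 UMIs, 63.1% of 610 Kit-high cells (59.1 to 67.0) still showed Kit, against 0.942% of 2018 cells with Kupffer genes at or above 0.4% and endothelial genes below 0.8%, a class that should lack it. The median depth of that class, called the Kupffer gate below, was 4084 UMIs. Because the rule required at least 2 Kit UMIs, these Kit counts and shares follow from the selection and are no support for it.

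Cells lay close to the Kit and vein gene limits on both sides. Of the 635 cells, 289 had exactly 2 Kit UMIs, with 339 CPM of Wnt2 (counts per 1000000 UMIs of the summed cells), and the 514 cells just outside, with 1 Kit UMI, had 273 CPM. The 635 cells had 402 CPM of Wnt2, and the 115 cells left out for a single vein gene UMI had 536 CPM. The endothelial limit had 2 cells just inside (0.8 to 1.0%) and 1 just outside (0.6 to 0.8%), the Kupffer limit 0 on either side, and the mitochondrial limit 27 cells at 10 to 20% against 22 above. The libraries shared 5 cell barcodes, and 1 of them belonged to a Kit-high cell.

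Markers of other cell types did not move together between Kit-high and Kit-zero cells. The mast cell and progenitor list, included because mast cells also carry Kit, had 233 CPM in Kit-high and 311 CPM in Kit-zero cells. The mast cell genes Cpa3, Mcpt4, Fcer1a, Ms4a2 and Tpsb2 were at 0 in both sets. The Kupffer list summed to 186 CPM in Kit-high and 208 CPM in Kit-zero cells, with 0 of 10 genes at 0 in either, and the hepatocyte list to 603 and 1032 CPM, with 0 of 7 at 0. Cells of both sets had to lie under the Kupffer limit of the rule, so the Kupffer sums are not independent of the selection. The mesothelial list had 42.4 CPM in Kit-high and 7.11 CPM in Kit-zero cells, 98.2% of it in 10 Kit-high cells, and 0 of its 5 genes at 0 in either. Haemoglobin genes had 539.6 CPM in Kit-high and 11.4 CPM in Kit-zero cells, 99.4% of it in 10 Kit-high cells. In all, 37 Kit-high cells (5.83%) and 46 Kit-zero cells (3.61%) carried at least 5 UMIs of haemoglobin genes or of another cell type's list, or a hepatocyte share of at least 5%. For this count the endothelial lists other than the lymphatic one were not used, nor any marker outside the hepatocyte list seen in over 20% of Kit-zero cells. Values without these cells are given where a ratio changed its direction.

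Against Kit-zero cells, most measured genes of the central side of the sinusoid were higher in Kit-high cells and most of the portal side lower. Across the genome, 140 of 8322 genes with at least 100 UMIs over both sets (1.68%) were higher by 1.5-fold or more and 190 (2.28%) were lower by as much, with a median log2 ratio of 0.02. Of 10 listed central-side genes 7 had enough UMIs, and 5 of these were at least 1.5-fold higher and 0 lower, with a median log2 ratio of 1.11. Ramp3, Vwf and Edn1 fell under the minimum and were not counted. Over cells with 0, 2, 3 and at least 4 Kit UMIs, Vwf went the other way, at 9.07, 2.23, 0 and 0.783 CPM. Ramp3 had 2.31, 5.02, 9.40 and 8.61 CPM in these classes, and Edn1 4.98, 0, 2.09 and 20.3 CPM. Few Kit-high cells held these genes: of 635, Edn1 had a UMI in 3, Vwf in 5 and Ramp3 in 26. Of 12 listed portal-side genes 11 were measured well enough, 0 were higher and 7 were lower, with a median of -0.63. In these list counts, a gene that would have missed the 100 UMIs had both sets been at the lower of the 2 levels was left out, because it could pass only by differing, and is named apart. For the portal side this was Adgrg6. The counts over all genes, here and in the later comparisons, keep such genes. Under the filter of the lists, 100 of 8029 genes were higher and 129 lower against Kit-zero cells. These lists were drawn up with earlier results of these data known, so the counts describe the cells and give no independent support.

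Wnt2 had 402 CPM (383 to 422) in Kit-high cells and 157 CPM (147 to 168) in Kit-zero cells, a ratio of 2.56 (2.36 to 2.78). It had a UMI in 55.6% of thinned Kit-high cells, 23.6% of 1005 thinned Kit-zero cells and 0.595% of the Kupffer gate (unthinned, 80.5%, 35.6% and 1.41%). The ratio lay between 2.39 and 2.95 under every alternative that kept Kit-zero cells as the other side. Cdh13, which encodes the adhesion molecule T-cadherin, had 151 CPM in Kit-high and 47.1 CPM in Kit-zero cells, a ratio of 3.20 (2.76 to 3.71). Rab3b, a GTPase of vesicle release, had 31.3 and 12.6 CPM (ratio 2.48). Lfng, the Notch-modifying enzyme Lunatic fringe, had 88.9 CPM in Kit-high and 41.3 CPM in Kit-zero cells (ratio 2.15). The last of the 5, Ptgs1, is the constitutive cyclooxygenase and had 347 CPM in Kit-high and 189 CPM in Kit-zero cells (ratio 1.84). In the Kupffer gate Ptgs1 had a UMI in 80.7% of cells and Lfng in 41.8%, against 82.5% and 38.1% of Kit-high cells (thinned, 68.2% and 25.3% against 48.7% and 17.7%). Both genes were thus seen less often in thinned Kit-high cells than in the thinned Kupffer gate, so these shares are not read as expression. The part of free Kupffer cell RNA in them was not tested. The Kupffer list summed to 186 CPM in Kit-high and 208 CPM in Kit-zero cells. Both sets were selected under the Kupffer limit of the rule, so these sums do not test that part either. Thbd (thrombomodulin, 293 and 232 CPM) and Fabp4 (a fatty acid binding protein, 558 and 449 CPM) stayed within 1.5-fold, at ratios of 1.26 and 1.24. Outside the lists, Lgals1, which encodes galectin-1 and was chosen after its values were seen, had 347 CPM in Kit-high and 164 CPM in Kit-zero cells (ratio 2.12, 1.95 to 2.30).

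On the portal side, Adgrg6, an adhesion G protein-coupled receptor that reached the minimum only through Kit-zero cells, had 3.72 CPM (2.08 to 6.14) in Kit-high cells and 51.8 CPM (46.0 to 58.1) in Kit-zero cells, a ratio of 0.0719. Msr1, the class A scavenger receptor, had 229 CPM in Kit-high and 525 CPM in Kit-zero cells (ratio 0.437, 0.405 to 0.470). Msr1 is also a gene of Kupffer cells, with a UMI in 73.0% of that gate without thinning. After thinning it was in 56.9% of that gate and 56.7% of Kit-zero cells, so its shares are not read as expression. Ntn4, the secreted protein netrin-4, had 281 CPM in Kit-high and 611 CPM in Kit-zero cells (ratio 0.459, 0.429 to 0.491). The arterial ligands Efnb2 (116 and 226 CPM, ratio 0.516) and Dll4 (102 and 162 CPM, ratio 0.632) were lower but far from absent. Il1a, an interleukin-1 ligand, and Cd36, a fatty acid and scavenger receptor, had ratios of 0.646 and 0.660. Jag1, another Notch ligand, had a ratio of 0.556 against Kit-zero cells and of 1.48 against cells with 1 Kit UMI. Ltbp4, Efna1 and Adam23 were within 1.5-fold at 0.686, 0.741 and 0.795, and Clu at 1.46.

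**Figure D1:**
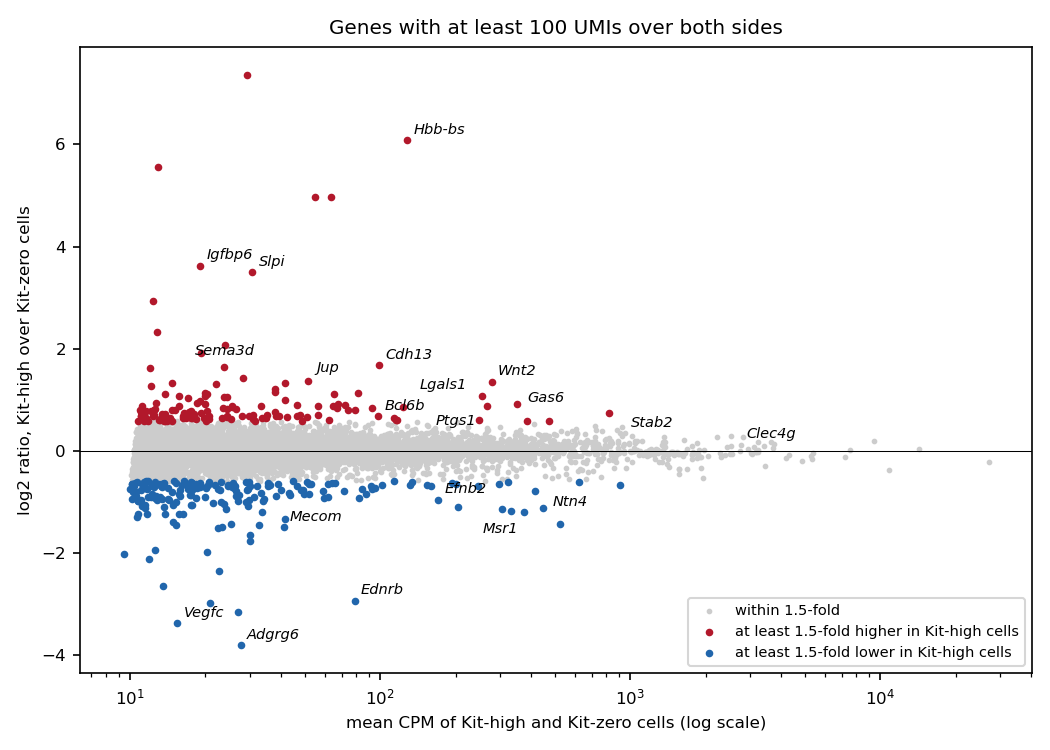
Ratio of CPM in Kit-high over Kit-zero cells (y axis, log2) against the mean CPM of both sets (x axis, log scale), 1 point per gene with at least 100 UMIs. Red points are the 140 genes at least 1.5-fold higher in Kit-high cells and blue points the 190 at least 1.5-fold lower; Hbb-bs, near the top, had 99.0% of its UMIs in 3 Kit-high cells, while Wnt2 had a UMI in 511 Kit-high cells and Cdh13 in 312.

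The level of Wnt2 climbed with the number of Kit UMIs per cell. Over cells with 0, 1, 2, 3 and at least 4 Kit UMIs it was 157, 273, 339, 416 and 480 CPM, with intervals that do not overlap between 0, 1 and 2. Cdh13 went the same way, at 47.1, 90.8, 134, 139.9 and 182 CPM, where the intervals at 2 and 3 UMIs overlap, as do those at 3 and at least 4. Lgals1 had 164, 214, 298, 340.3 and 422 CPM. In the opposite direction, Msr1 had 525, 363, 276, 215 and 175 CPM. Ednrb, the endothelin B receptor, had 139.8, 38.6, 23.4, 24.0 and 7.04 CPM, so most of its difference lay between cells with 0 and with 1 Kit UMI. Of the 140 higher genes 28 climbed at every step and 117 had already moved the same way at 1 UMI, and of the 190 lower genes 35 fell at every step and 176 had already moved. These genes were chosen by their ratio between cells of these same classes, and the share over all genes was not computed. The counts therefore describe the chosen genes and give no support for a graded change. Median depth was 4254, 4811, 5564, 5446.5 and 5614 UMIs over these classes. Set against cells with exactly 1 Kit UMI, Kit-high cells had a Wnt2 ratio of 1.47, and 87 genes were at least 1.5-fold higher and 54 lower.

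**Figure D2:**
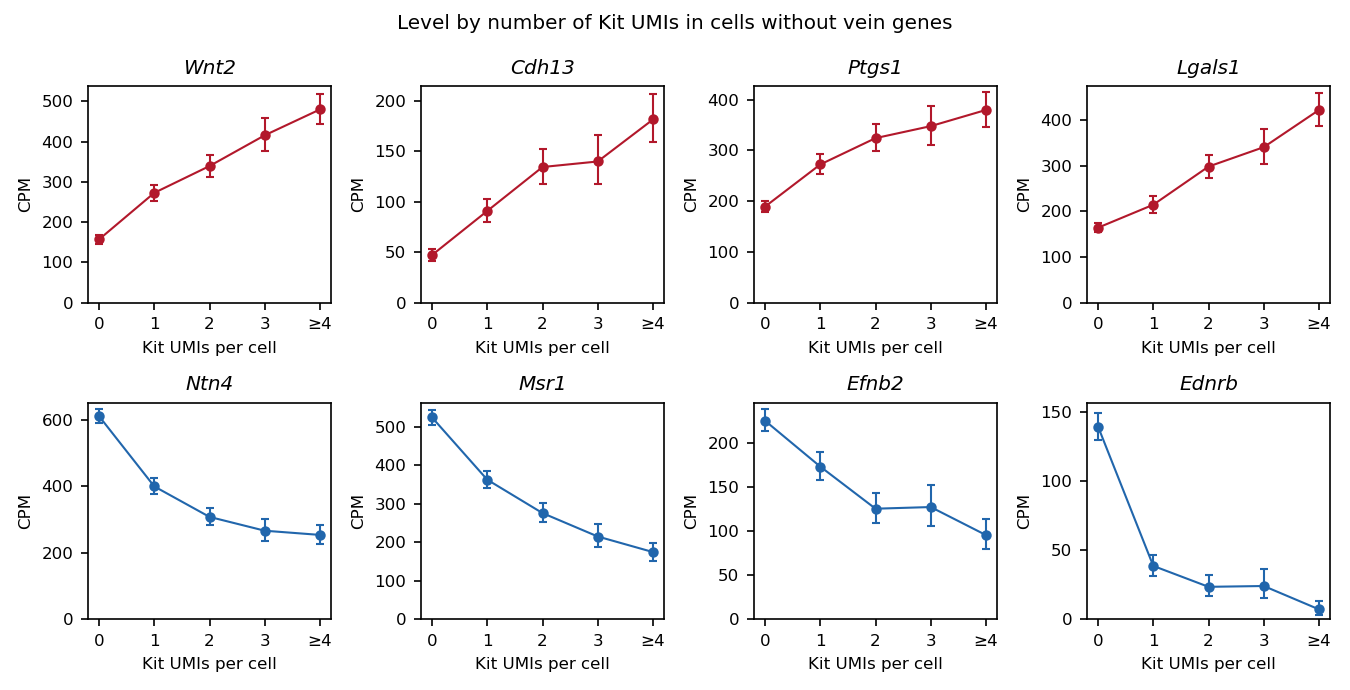
CPM (y axes, starting at 0) in cells without vein genes that hold 0, 1, 2, 3 or at least 4 Kit UMIs (x axes), for 4 genes higher in Kit-high cells (red) and 4 lower (blue). Points are sums over 1275, 514, 289, 156 and 190 cells with exact Poisson intervals; Wnt2 runs from 157 CPM at 0 Kit UMIs to 480 CPM at 4 or more, and Ednrb from 139.8 to 7.04 CPM.

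Of 27 listed genes of the Kit receptor pathway 23 were measured well enough, and 0 were higher and 0 lower in Kit-high cells, with a median log2 ratio of 0.04. Over all genes 1.68% were higher and 2.28% lower, or 100 and 129 of 8029 under the filter of the lists. Lists of this size with no such gene are near the background, here and below. The Src family kinases that act under Kit were at 589 CPM in Kit-high and 522 CPM in Kit-zero cells for Fyn and at 127 and 124 CPM for Lyn. The adaptor Grb2 (ratio 1.09, 0.952 to 1.24), the kinase subunit Pik3r1 (1.04, 0.915 to 1.19) and Cbl, the ubiquitin ligase that removes active Kit (1.17, 1.04 to 1.31), lay near 1. The lowest was Socs1, an inhibitor of cytokine signalling, at 57.6 CPM in Kit-high and 78.8 CPM in Kit-zero cells (ratio 0.731). Kitl, the ligand, had 128 CPM (118 to 139.9) in Kit-high cells and 173 CPM (162 to 184) in Kit-zero cells, a ratio of 0.742 that stayed within 1.5-fold. Kitl was added after its values were seen.

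In the Wnt list, 14 of 28 genes were measured well enough, 2 were higher, Wnt2 and Dkk3, and 0 lower (median log2 ratio 0.15). The background over all genes was 1.68% higher and 2.28% lower, or 100 and 129 of 8029 genes under the filter of the lists. Dkk3, a secreted protein of the Dickkopf family, had 53.1 CPM in Kit-high and 22.9 CPM in Kit-zero cells (ratio 2.32, 1.85 to 2.90). The receptor Fzd4 had 324 and 287 CPM, the co-receptors Lrp5 and Lrp6 had ratios of 1.22 and 1.13, and Wls, which carries Wnt proteins to the surface, had 177 and 159 CPM. Axin2, a general target of Wnt signalling, was near the detection limit in both sets, at 1.74 CPM in Kit-high and 1.42 CPM in Kit-zero cells.

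Among signals between endothelium and other liver cells, 0 of 15 genes of the BMP and TGF-beta list were higher and 0 lower. This is near the background of 1.68% and 2.28%, or of 100 and 129 of 8029 genes under the filter of the lists. Bmp2, the endothelial ligand that controls hepcidin in hepatocytes, had 2782 CPM in Kit-high and 2270.1 CPM in Kit-zero cells (ratio 1.23), and Bmp6, which has the same role, 230.3 and 192 CPM (1.20). In the VEGF and angiopoietin list 0 of 14 were higher and 1, Angpt2, lower. Vegfc, a lymphatic growth factor that reached the minimum only through Kit-zero cells, had 2.73 CPM (1.36 to 4.89) in Kit-high and 28.1 CPM (23.9 to 32.8) in Kit-zero cells, and Angpt2, which opposes Tie2 activation, 24.6 and 39.7 CPM (ratio 0.620). The receptors Flt1 and Flt4 were at ratios of 1.11 and 1.10. In the Notch list 1 of 10 genes, Lfng, was higher and 2, Dll4 and Jag1, were lower. Hes1, a Notch target, had 536 CPM in Kit-high and 705 CPM in Kit-zero cells (ratio 0.761).

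Of the listed endothelial transcription factors 26 were measured well enough, 1 was higher and 2 were lower. Across all genes these shares were 1.68% and 2.28%, or 100 and 129 of 8029 under the filter of the lists. Bcl6b, a zinc finger repressor of endothelium, had 120.4 CPM in Kit-high and 75.4 CPM in Kit-zero cells (ratio 1.60, 1.40 to 1.82). Mecom, a regulator of arterial endothelial identity, had 21.6 and 60.6 CPM (ratio 0.356, 0.278 to 0.452) and Meis1 had 40.2 and 61.4 CPM (0.655). The sinusoidal factors Gata4 (227 CPM in Kit-high, 230.5 CPM in Kit-zero cells) and Maf (3434 and 3052 CPM) were within 1.5-fold, and so was Sox17, a factor of arterial endothelium, at a ratio of 0.676.

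The scavenger list had 0 genes higher and 4 lower of 17: Cd209b, Cd36, Msr1 and Cd14. For this list and the next, the background was 1.68% higher and 2.28% lower over all genes. Under the filter of the lists it was 100 and 129 of 8029. Cd209b, a C-type lectin, had 12.4 CPM in Kit-high and 19.7 CPM in Kit-zero cells. Cd14, the lipopolysaccharide co-receptor, was lower against Kit-zero cells (ratio 0.666) but at 1.09 against cells with 1 Kit UMI. It was in 2.30% of thinned Kit-high and 2.69% of thinned Kit-zero cells, against 73.8% of the Kupffer gate, and the part of free Kupffer cell RNA in it was not tested. The haemostasis and vascular tone list had 2 of 14 higher, Gas6 and Ptgs1, and 1 lower, Ednrb. Gas6, the ligand of the TAM receptors, had 460.4 CPM (439.7 to 482) in Kit-high and 243 CPM (230.0 to 256) in Kit-zero cells, a ratio of 1.90. Ednrb had 18.4 CPM (14.4 to 23.1) in Kit-high and 139.8 CPM (130.2 to 149.9) in Kit-zero cells, and a UMI in 23 of 635 and 128 of 1275 cells. F8 stayed at 939 and 848 CPM.

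Of 17 chemokine, cytokine and adhesion genes 1 was higher and 3 were lower, with a median log2 ratio of -0.29. Background shares over all genes were 1.68% higher and 2.28% lower, or 100 and 129 of 8029 under the filter of the lists. Ackr4, a receptor that scavenges chemokines, had 27.3 CPM in Kit-high and 12.4 CPM in Kit-zero cells (ratio 2.19). Cxcl1 (36.2 and 61.5 CPM), Cxcl2 (16.9 and 28.8 CPM) and Il1a (152 and 235 CPM) were lower. Ccl4, which reached the minimum only through Kit-zero cells, at 7.45 and 37.9 CPM, turned to a ratio of 1.35 without the cells that carry markers of another type. The immediate early and heat shock list had a median log2 ratio of -0.34 over 21 genes, of which 0 were higher and 2 lower. Egr1 had 701 CPM in Kit-high and 1119.9 CPM in Kit-zero cells (ratio 0.626) and Ier2 had 257 and 392 CPM (0.655), while the heat shock gene Hspa1a had 247 and 266 CPM. These genes are also known to respond to tissue dissociation, whose part was not tested. Interferon-induced genes had 0 of 15 higher and 1 lower, Isg15, at 19.6 and 32.4 CPM, with a median of -0.29.

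Among MHC and antigen presentation genes 2 of 11 were higher, Cd74 and H2-Aa, with 49.0% and 41.8% of their UMIs in 3 Kit-high cells, and H2-Aa had a ratio of 0.994 without the 5% of cells with most UMIs. In the cell cycle list 2 of 4 measured genes were higher, with a median log2 ratio of 0.29. Both, Ccnd1 and Mcm2, lay at the threshold and were under 1.5-fold with TMM scaling, at 1.47 and 1.46, as was H2-Aa at 1.47. Ccnd1, cyclin D1, had 570.1 CPM in Kit-high and 379 CPM in Kit-zero cells (interval of the ratio 1.42 to 1.60). Mcm2, a replication helicase subunit, had 17.6 and 11.7 CPM (1.06 to 2.13) but a ratio of 0.862 against cells with 1 Kit UMI. Mitotic genes such as Mki67 were under the minimum of UMIs. Lipid, iron and retinoid genes had 0 of 12 higher and 1 lower, Cd36, and matrix genes 0 higher and 0 lower of 14. All these lists stand beside 1.68% higher and 2.28% lower over all genes, or 100 and 129 of 8029 under their filter.

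**Figure D3:**
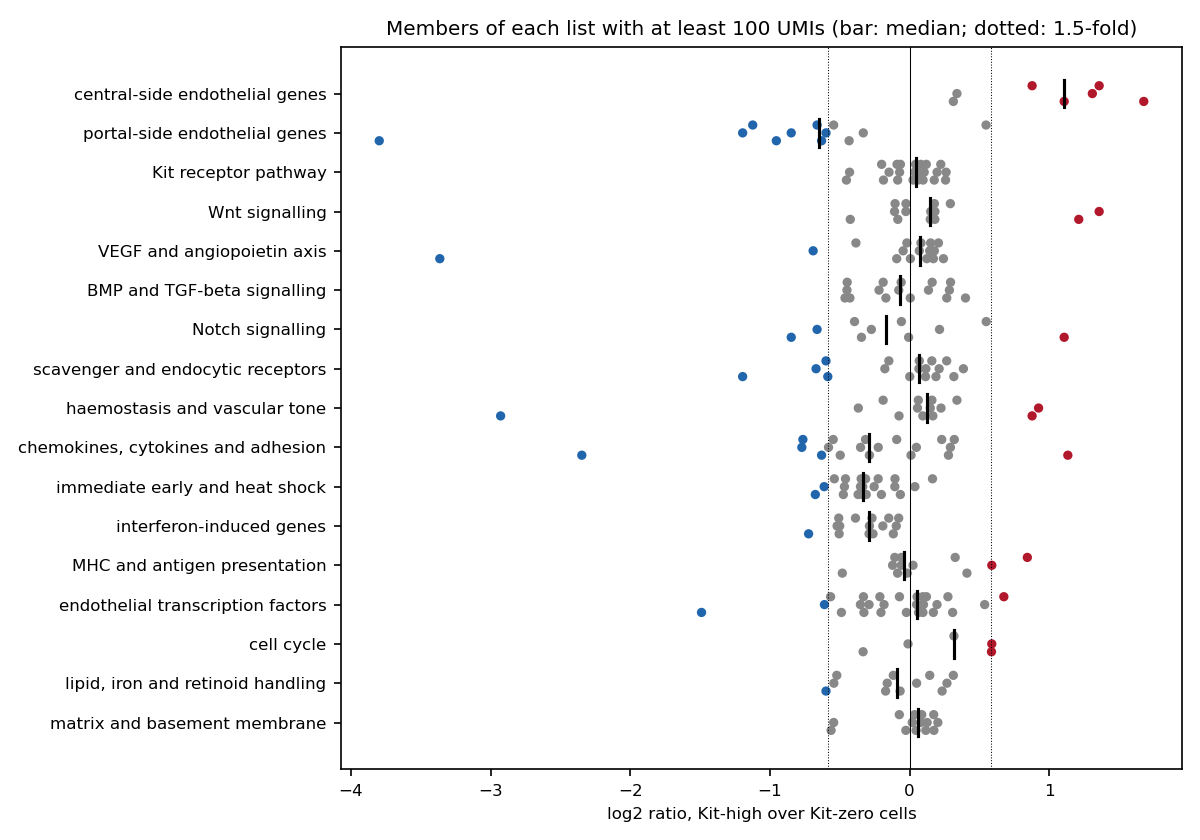
Log2 ratio of Kit-high over Kit-zero cells (x axis) for each gene of 17 lists (rows) with at least 100 UMIs over both sets. Red points are at least 1.5-fold higher in Kit-high cells, blue at least 1.5-fold lower and grey in between, and black bars are medians; the central-side list has its median at 1.11 and the portal-side list, Adgrg6 included, at -0.65.

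The 10 genes with the largest ratios over Kit-zero cells were held by a few cells. They were the haemoglobin genes Hbb-bt, Hbb-bs, Hba-a1 and Hba-a2, the neutrophil gene S100a9, and Igfbp6, Slpi, Efemp1, Fmo2 and Spp1, each with 72.4% to 100% of its UMIs in 3 Kit-high cells. Hbb-bs had 253 CPM in Kit-high and 3.73 CPM in Kit-zero cells but a UMI in 13 of 635 cells. Without cells carrying markers of another type its ratio was 0.976, and those of Efemp1 and Fmo2 were 0.854 and 0.266. With the 3 highest cells of each gene left out on both sides, a choice made after the data were seen, Hba-a2 and Hba-a1 still came first, at ratios of 8.37 and 6.28 on 6 and 9 remaining UMIs in Kit-high cells, and genes held by many cells followed. Olfr1396, annotated as an olfactory receptor, had a ratio of 4.01 and a UMI in 96 cells. Cdh13 came next at 3.31 in 312 cells, the neurotrophin Ntf3 at 3.29 in 64 cells, the semaphorin Sema3d at 3.08 in 108 cells and the junction protein Jup, plakoglobin, at 2.63 in 197 cells.

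The lower genes were led by Adgrg6, Vegfc, Slc45a4, Mgp, Ednrb, Atp13a3, Ccl4, Gprc5c, Anxa6 and Gsn, in the order of their ratios. Slc45a4, a solute carrier, had 5.46 CPM in Kit-high and 48.4 CPM in Kit-zero cells (ratio 0.113, 0.0696 to 0.174). In Kit-zero cells a UMI was seen in 126 of 1275 cells for Adgrg6, 104 for Vegfc, 135 for Slc45a4 and 18 for Mgp. Of their UMIs in Kit-zero cells, 3 cells held 92.8% for Mgp, 88.3% for Ccl4 and 86.7% for Gsn, against 9.19% for Slc45a4. After thinning, 0.164% of Kit-high cells, 7.06% of Kit-zero cells and 3.17% of the Kupffer gate showed Adgrg6, and 1.48%, 8.46% and 1.09% showed Ednrb. Vegfc was in 0.328%, 5.27% and 0.149%. For Slc45a4 at 0.984%, 7.46% and 10.2%, and for Mgp at 0.328%, 0.498% and 1.29%, the share of Kit-zero cells did not exceed that of the Kupffer gate, so these shares are not read as expression. The same held for Atp13a3 (1.99% of thinned Kit-zero cells, 21.8% of the Kupffer gate), Ccl4 (0.995%, 32.5%) and Anxa6 (2.49%, 14.5%). It also held for Gprc5c (3.28%, 6.94%) and Gsn (1.09%, 5.90%). The ratio of Gsn turned to 1.10 without its 3 highest cells on each side.

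For most central-side genes, Kit-high cells without vein genes had levels below those with vein genes. These sets were split on central vein genes, and the lists were drawn up with earlier results of these data known. The list counts here therefore describe the cells and give no independent support. Of 7137 genes, 152 (2.13%) were higher by at least 1.5-fold in the cells without vein genes and 133 (1.86%) lower. Of 7 central-side genes measured, 0 were higher and 6 lower in the cells without vein genes (median log2 ratio -0.76), and of 10 portal-side genes 8 were higher and 0 lower (median 0.99). Wnt2 had 402 CPM in cells without and 666 CPM in cells with vein genes (ratio 0.603, 0.561 to 0.648). Cdh13 had 151 and 384 CPM (0.392). Fabp4, nearly level against Kit-zero cells, had 558 CPM without and 2572 CPM with vein genes (0.217, 0.206 to 0.228).

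Vwf, Edn1 and Entpd1 reached the minimum of UMIs only through the cells with vein genes, where a minority held them. Vwf, von Willebrand factor, had 1.24 CPM in cells without and 63.1 CPM in cells with vein genes, with a UMI in 5 of 635 and 27 of 300 cells. Edn1, endothelin-1, had 6.95 and 35.7 CPM, with a UMI in 3 and 26 cells. Entpd1, the ectonucleotidase CD39, had 3.72 and 48.0 CPM, with a UMI in 15 and 50 cells, and was in 54.9% of the thinned Kupffer gate against 0.328% of Kit-high cells without and 7.64% of those with vein genes. In the other direction, Lyve1 had 662 CPM without and 327 CPM with vein genes (ratio 2.03, 1.87 to 2.20), Msr1 had 229 and 69.5 CPM (3.30) and Angpt2, which reached the minimum only through the cells without vein genes, had 24.6 and 6.86 CPM (3.58). Bcl6b was the listed transcription factor higher against all 3 other sets, at 120.4 CPM in Kit-high cells, 79.6 CPM in those with vein genes, 69.3 CPM in Efnb2 and Dll4 positive cells and 75.4 CPM in Kit-zero cells. Ednrb did not separate the 2 Kit-high sets, at 18.4 and 17.8 CPM.

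Against Efnb2 and Dll4 positive cells, 224 of 7120 genes (3.15%) were higher by at least 1.5-fold in Kit-high cells and 180 (2.53%) lower. Of 6 central-side genes measured, 4 were higher, Wnt2, Cdh13, Ptgs1 and Lfng, with a median log2 ratio of 1.38, and Rab3b reached the minimum only through Kit-high cells. Wnt2 had 402 CPM in Kit-high and 86.5 CPM in Efnb2 and Dll4 positive cells (ratio 4.65), Cdh13 had 151 and 35.8 CPM (4.21) and Lgals1 had 347 and 108 CPM (3.22). Of 21 immediate early and heat shock genes 0 were higher and 7 lower, among them Fos at 1586 and 2605 CPM, and of 14 interferon-induced genes 0 were higher and 6 lower. Because these 350 cells are also among the Kit-zero cells, both comparisons share cells. They were chosen for genes of the portal side, so the central-side counts give no independent support.

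**Figure D4:**
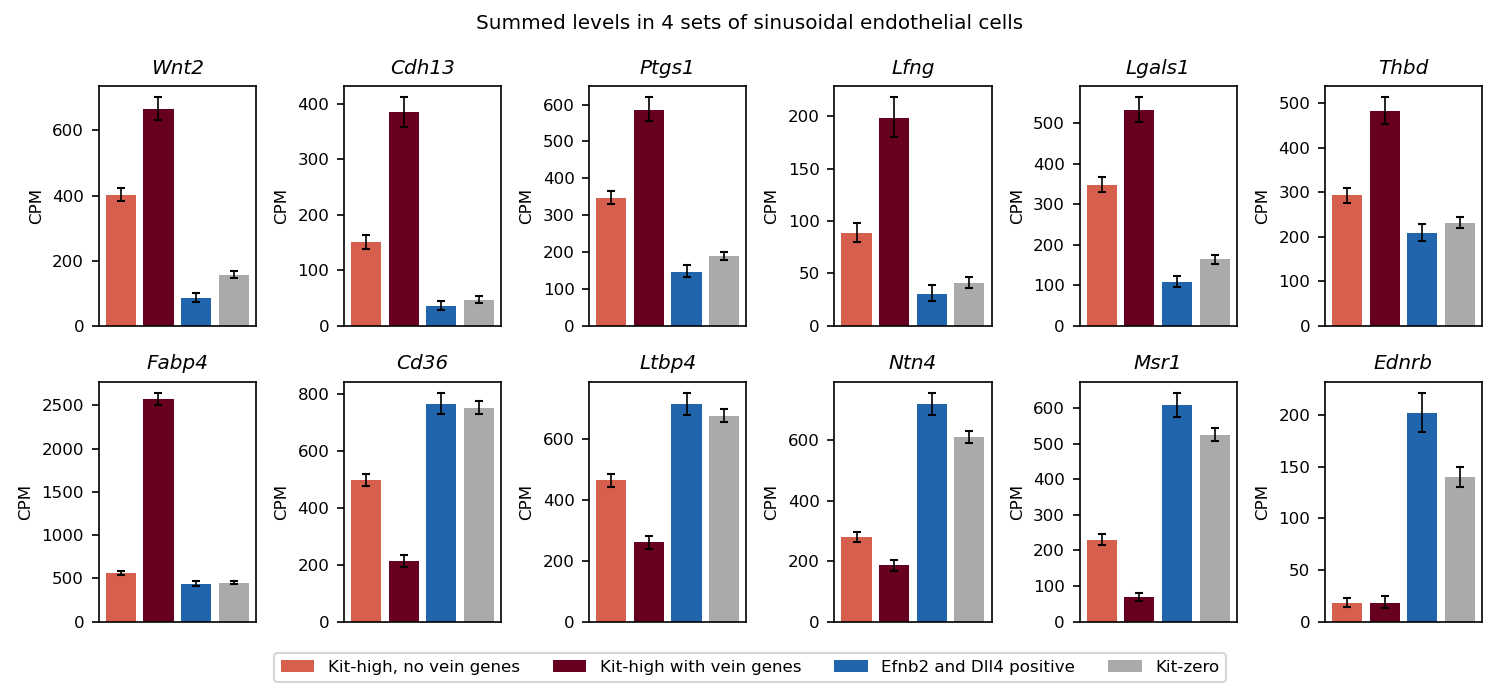
CPM (y axes, starting at 0) of 12 genes in Kit-high cells without vein genes (635 cells), Kit-high cells with vein genes (300), Efnb2 and Dll4 positive cells (350) and Kit-zero cells (1275), with exact Poisson intervals. For Wnt2, Cdh13, Ptgs1, Lfng, Lgals1 and Thbd the Kit-high cells without vein genes lie below those with vein genes and above both other sets; Fabp4 stands out only in the cells with vein genes, at 2572 CPM.

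Kit-high cells were not uniform. Without thinning, Efnb2 and Dll4 both had a UMI in 140 of 635 Kit-high cells (22.0%), in 25 of 300 with vein genes (8.33%) and in 350 of 1275 Kit-zero cells (27.5%). These sets differ in depth. In thinned cells Efnb2 was seen in 19.7% of Kit-high and 30.9% of Kit-zero cells, and Dll4 in 17.4% and 25.2%. After thinning, 339 Kit-high cells showed a Wnt2 UMI and 271 did not. Cdh13 was seen in 29.8% of the set with Wnt2 (24.97 to 34.97) and 18.1% of the set without (13.7 to 23.2), Lgals1 in 51.3% and 39.1%, and Fabp4 in 51.9% and 39.1%. Dll4 was seen in 12.7% with (9.33 to 16.7) and 23.2% without Wnt2 (18.4 to 28.7), and Fos in 47.8% and 63.8%. Msr1 at 25.4% and 29.9% and Thbd at 36.6% and 33.2% had overlapping intervals. Of the 12 listed portal-side genes, Dll4 alone had intervals that did not overlap. Efnb2 was at 17.4% and 22.5% and Ntn4 at 31.3% and 38.4%, while Clu, at 8.26% and 3.69%, and Jag1 went the other way. Among listed central-side genes, the intervals of Ptgs1 (53.4% and 42.8%), Lfng, Rab3b, Ramp3, Vwf and Edn1 also overlapped.

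**Figure D5:**
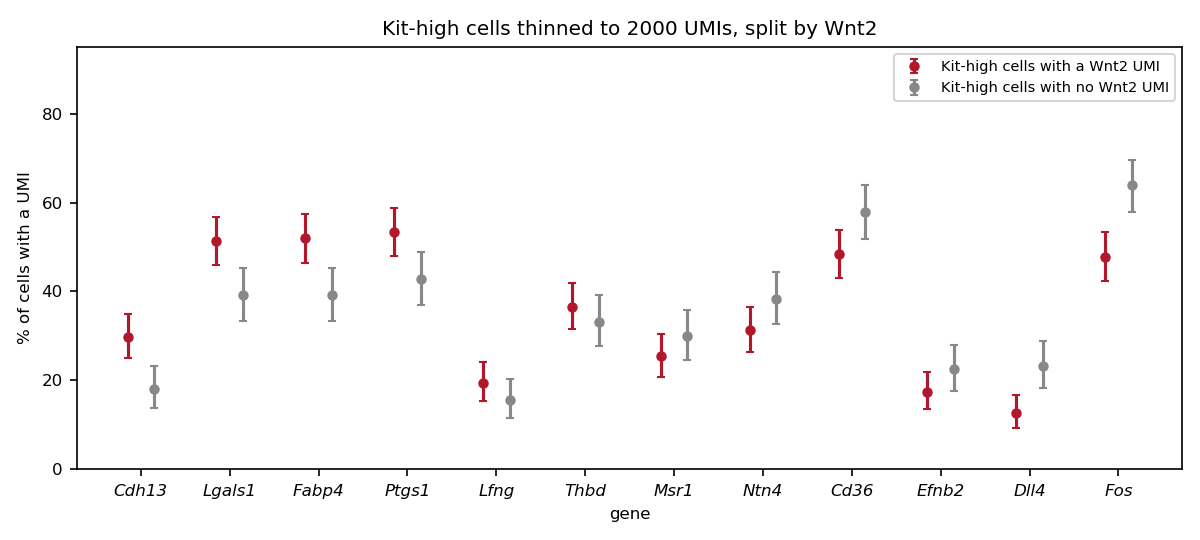
Share of thinned Kit-high cells with a UMI of each gene (y axis, %), for 339 cells with a Wnt2 UMI (red) and 271 without (grey), with exact binomial intervals. Cdh13, Lgals1 and Fabp4 are seen more often in cells with Wnt2, and Dll4 and Fos less often. The intervals of the other genes shown overlap.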

How the data were processed

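The authors deposited 1 table of unnormalized UMI counts, with 22508 genes in rows and 9703 cells in columns, and GENCODE vM21 lists 99.92% of its symbols. Per the submitters' processing notes, GRCm38 was the build and Cell Ranger 2.1.1 and Seurat 3.1 were among the tools; their roles, and which cells were removed before deposit, are not stated in the sources used here. Cells were assigned to WT replicate 1 or 2 by the number that ends their barcode. Replicate 1 held 40645060 and replicate 2 held 11867207 UMIs.

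Counts of each set of cells were summed and scaled to counts per 1000000 (CPM), with exact Poisson intervals for levels and exact binomial intervals, conditional on the sum, for ratios. A gene was called at 1.5-fold with at least 100 UMIs over both sets, leaving out genes of the gate. Shares of cells come from cells thinned to 2000 UMIs, with shallower cells left out (25 of 635 Kit-high and 270 of 1275 Kit-zero cells), unless called unthinned. Counts out of all cells of a set are unthinned. A count of 0 was set to 3 for a ratio. Intervals cover counting error only. No doublet caller was run and free RNA was not subtracted. Named genes were those of the gate, the 10 largest and 10 smallest ratios (without mitochondrial, ribosomal and model genes), and per list the highest gene and up to 6 past 1.5-fold; other list members given as examples, and Lgals1, Kitl and Igfbp5, were chosen after their values were seen. The members and lists were chosen with earlier results of these data known. The calls were tested on simulated data. Alternatives were depth matching, other limits of the rule, of UMIs and of fold, TMM scaling (edgeR 4.0.16), and, chosen after seeing the data, leaving out cells with markers of another type or the 3 highest cells of each gene, or genes that reached the minimum only through the set where they were high. Python 3.11.15, numpy 2.4.6, scipy 1.17.1 and pandas 2.3.3 were used.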

Additional observations from a re-analysis of the deposited data

Results flagged for a closer look

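Kit and Wnt2 also had UMIs in WT replicate 2, which entered no comparison because 2 of its cells passed the endothelial gate. Over all 2341 cells of that library Kit had 18.9 CPM (16.5 to 21.5) and Wnt2 13.7 CPM (11.6 to 15.9), above what a count of 0 allows. The cells that hold them were not examined further.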

How the results depend on the processing

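The Wnt2 ratio of 2.56 was 2.95 with depth-matched Kit-zero cells, 2.88 for Kit-high cells with at least 3 Kit UMIs and 1.47 against cells with 1 Kit UMI, and between 2.39 and 2.76 under the other 8 alternatives. With 1 Kit UMI as the other side 87 genes were higher and 54 lower in place of 140 and 190. With a minimum of 30 UMIs these were 412 and 523, with no minimum but 1 UMI on each side 1694 and 1674, and at 2-fold 34 and 46. At 2-fold the counts were 31 and 40 against cells with vein genes and 61 and 37 against Efnb2 and Dll4 positive cells. With only genes that would reach 100 UMIs at the lower of both levels, a choice made after the data were seen, the counts were 100 and 129 against Kit-zero cells, 82 and 94 against cells with vein genes and 137 and 138 against Efnb2 and Dll4 positive cells. At least 3 Kit UMIs left 346 cells. TMM scaling gave 120 higher and 223 lower genes. Of the 140 and 190 genes, 99 and 143 were called without cells carrying markers of another type, and 114 and 169 without the 3 highest cells of each gene.

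Of 768 pairs with a value of a named gene and an alternative, 21 turned direction, and the cause was not tested. Against cells with 1 Kit UMI the ratios were 1.14 for Gsn, 1.48 for Jag1, 1.09 for Cd14 and 0.862 for Mcm2. With the endothelial limit at 1.5% they were 0.736 for both Fmo2 and Igfbp5 and 0.976 for H2-Aa. Without the 5% of cells with most UMIs they were 0.280 for Fmo2, 1.74 for Gsn, 0.994 for H2-Aa and 0.171 for Igfbp5, and with vein gene cells kept Fmo2 was at 0.818. Without cells carrying markers of another type they were 0.976 for Hbb-bs, 0.854 for Efemp1, 0.266 for Fmo2, 1.35 for Ccl4, 1.52 for Gsn and 0.170 for Igfbp5, and without the 3 highest cells of each gene 0.798 for Fmo2, 1.10 for Gsn and 0.244 for Igfbp5. No paired analysis was possible because all Kit-high cells came from 1 library, so no replicate could be left out.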

Other observations

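Among Kit-high cells thinned to 2000 UMIs, some immune and stress genes varied from cell to cell far more than most. The ratio of variance to mean was 7.27 for Cxcl10, a chemokine seen in 230 of 610 cells, 5.06 for Fos, 4.16 for the interferon-induced GTPase Iigp1, 3.27 for Vcam1, 3.13 for Cxcl9 and 3.04 for Cyp26b1, which breaks down retinoic acid. The median over 1109 genes with at least 200 UMIs was 1.08. Kit-zero cells varied likewise for these genes, with 5.23 for Cxcl10 and 3.51 for Cyp26b1. Hbb-bs had the highest ratio, 145, from 7 cells. Genes of other kinds varied as much: Gm42418 (19.4) and Malat1 (9.72) lay above Cxcl10, and the mitochondrial mt-Rnr2 (6.88) and mt-Cytb (6.40) above Fos.

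Igfbp5, added after its values were seen, had 59.6 CPM in Kit-high and 23.7 CPM in Kit-zero cells, but 94.2% of its UMIs lay in 3 Kit-high cells. The B cell list had 24.8 CPM in Kit-high and 3.20 CPM in Kit-zero cells, with 3 and 1 cells of at least 5 UMIs, and the cholangiocyte list 45.4 and 11.0 CPM.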
